A study of Mus musculus with 6 samples.

Results

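Immediate early genes are the genes that a cell switches on within minutes of a stimulus, before any new protein is made, and that fall again as the messenger RNA is degraded. They encode the AP-1 transcription factors of the Fos, Jun and Atf families, the zinc finger factors Egr1 and Klf4, and short-lived regulators of the response itself. Enzymatic digestion of a tissue and the handling of cultured cells are known to raise them, and axon injury raises Atf3 and Jun in peripheral neurons and in the Schwann cells around them. The set described here was chosen by gene symbol and holds 10 members, Fos, Fosb, Junb, Jund, Egr1, Atf3, Ier2, Ier3, Dusp1 and Klf4, of 20173 genes in the count table.

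All 10 were read in 6 RNA-Seq libraries of cultured sympathetic ganglion cells, 3 from Slit2fl/fl mice (genotype SLIT2f/f in the labels) and 3 from Slit2th mice (SLIT2-knockout in the labels). Slit2 encodes a secreted axon repellent, and in Slit2th mice its floxed allele is deleted by Cre recombinase under the control of the tyrosine hydroxylase (Th) promoter, whereas the Slit2fl/fl controls carry the floxed allele alone. By the study's methods the mice were males of 3 weeks on a C57BL/6J background, and the sympathetic chains were digested with collagenase and trypsin, cultured in B27 medium for 4 to 5 days and digested once more before sequencing; the dissociation protocol itself speaks of dorsal root neurons. Whether a library came from 1 mouse or several is not stated. The p-values below therefore measure the spread between these libraries, which may be technical in part.

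The libraries held 1255939 to 3155406 counts, so that 3 counts of a gene, taken as the floor of detection, were 0.951 to 2.39 CPM (counts scaled to a common library total); this covers counting error only. Slit2 itself was lower in every Slit2th library (11.5 to 15.2 CPM) than in every Slit2fl/fl library (43.8 to 55.1 CPM), a log2 fold change of -1.78 (standard error 0.37, adjusted p = 0.422 by edgeR's quasi-likelihood test over all genes). The labels call the cells neurons, but Th had 0 counts in all 6 libraries. The 23 neuron markers in the table summed to 207 to 606 CPM per library, while the 20 Schwann and satellite glia markers summed to 5945 to 20566 CPM and the 16 fibroblast markers to 14128 to 25203 CPM. The values are thus those of whole cultures, and in such bulk samples fewer cells of a type and less RNA per cell cannot be told apart. Replicate 1 of each group stood apart from the other libraries of its group, with a Pearson correlation of log2 CPM across genes of 0.842 and 0.863 in Slit2fl/fl and of 0.868 and 0.869 in Slit2th, against 0.938 and 0.965 between replicates 2 and 3. Slit2fl/fl replicate 1 was also the deepest library, had the most neuron marker reads (606 CPM against 207 to 226 CPM in the other libraries) and the lowest share of mitochondrially encoded genes (4.68% of counts against 11.1% to 14.0%).

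The members were short, GC-rich genes. Their merged exons, from GENCODE M21 on GRCm38, numbered 2.5 at the median against 9 over all tested genes, and all 10 had a GC content above the tested median of 48.8%. For 8 of the 10, a RefSeq window before the start site was at hand. In the 250 bases before the start, Fos, Atf3 and Dusp1 held the letters TGACGT on either strand, the core of the element bound by the cAMP-responsive factor CREB and by ATF proteins. These letters were in 3 of 8 member windows and in 6.47% of all 32851 windows of that length, and the 3 windows are shown because they carry this element. The TATA box letters TATAAA were found before Fos, as in 12.4% of all windows, and the GC box GGGCGG in 6 of the 8 member windows and 32.7% of all. The AP-1 letters TGANTCA were in none of the 8 windows, and in 6.75% of all. The CArG box, the element of serum response factor, was in none of the 8 windows and in 1.47% of all. Only these 250 bases were searched, and Egr1 and Ier2 had no window, so sites elsewhere or in these genes would be missed. The windows of Atf3 and Dusp1 lie inside the GENCODE spans of these minus-strand genes, which reach to 191218039 and 26562128. Any start of these genes farther upstream was not searched. A match is a string of letters and not a measured binding site. The 200 bases before each start are printed below, 5′ to 3′ on the strand of the gene, with TGACGT or its reverse complement and TATAAA in capitals; 2 overlapping matches make the 8 capital bases in the middle of the Dusp1 stretch.
Fos, chr12:85473690-85473889 of GRCm38.p6, plus strand: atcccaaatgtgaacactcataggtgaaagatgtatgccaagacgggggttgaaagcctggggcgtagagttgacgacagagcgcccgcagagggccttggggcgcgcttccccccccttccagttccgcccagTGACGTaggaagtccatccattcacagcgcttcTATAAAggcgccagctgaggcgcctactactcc
Atf3, chr1:191183334-191183533 of GRCm38.p6, minus strand: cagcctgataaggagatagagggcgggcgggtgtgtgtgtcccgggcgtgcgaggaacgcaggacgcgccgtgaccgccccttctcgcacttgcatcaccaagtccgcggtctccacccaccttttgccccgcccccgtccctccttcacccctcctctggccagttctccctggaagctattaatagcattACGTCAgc
Dusp1, chr17:26508473-26508672 of GRCm38.p6, minus strand: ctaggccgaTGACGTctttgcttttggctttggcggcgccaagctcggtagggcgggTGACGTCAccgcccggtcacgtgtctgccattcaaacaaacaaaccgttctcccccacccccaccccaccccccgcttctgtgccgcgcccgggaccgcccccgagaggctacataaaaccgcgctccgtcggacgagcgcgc

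The immediate early genes were plainly expressed in every culture, and most of their reads belonged to a few of them. Together the 10 genes took 0.199% to 0.391% of all counts in a library. Compared per kilobase of exon, Atf3, a stress-induced member of the ATF/CREB family, was the highest with a mean of 557 CPM per kb over the 6 libraries (360.03 to 1211). It ranked 75 among the 20159 genes with a known length. Fos, the partner that Jun proteins need for the most active form of AP-1, followed at 287 CPM per kb (219.6 to 371), rank 157. The ranges of Atf3 and Fos overlapped, although Atf3 was above Fos in 6 of 6 libraries. Jund stood at 132 CPM per kb (61.4 to 165) and Egr1 at 73.5 (55.5 to 94.1), again with ranges that met but with Jund above Egr1 in 6 of 6 libraries. Ier2, Ier3, Dusp1, Junb and Klf4 formed a lower tier at 17.8, 17.6, 17.5, 14.0 and 11.9 CPM per kb. Within this tier each gene's range over the libraries overlapped that of the next. Fosb was the lowest at 1.75 CPM per kb (0.990 to 3.03), rank 8325. The deposited table thus held well-counted members such as Atf3, with 1148 to 8149 counts per library, and thinly counted ones such as Fosb, with 7 to 59.

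**Figure D1:**
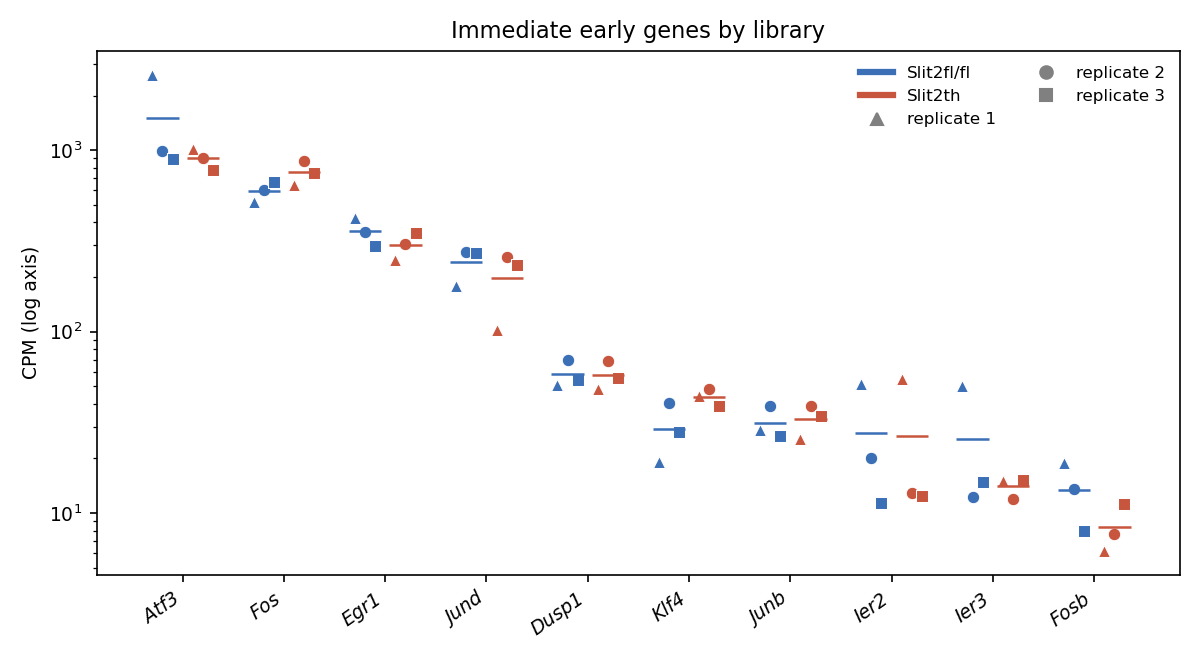
CPM of the 10 immediate early genes in each library on a log axis, ordered by mean level, with Slit2fl/fl in blue, Slit2th in red, symbols for the replicate number and bars for the group means (n = 3 each). The groups overlap for each gene, and the triangles of replicate 1 lie far from the other libraries for Atf3 and Ier3 in Slit2fl/fl and for Ier2 in both groups.

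The first question was whether these genes differed between Slit2th and control cultures, and none of the 10 did so beyond the spread between libraries. All 10 passed the filter on low counts, and the quasi-likelihood test of edgeR gave 0 of the 10 an adjusted p under 0.05, as it did 0 of all 12152 tested genes (0%). At an unadjusted p under 0.05 there were again 0 of the 10, where 10.8% of all tested genes passed. DESeq2, edgeR's exact test and limma-voom each called 0 of the 10 by either rule, whereas over all genes they gave 34, 16 and 0 calls after adjustment. With replicate 1 of both groups left out, edgeR's quasi-likelihood test called 377 genes and again 0 of the 10. For none of the 10 were all libraries of one group above or below all libraries of the other, whereas 18.5% of all tested genes were separated in this way (9.72% lower and 8.74% higher in Slit2th). Of the log2 fold changes, 3 were positive and 7 negative, where 52.2% of all tested genes were negative; the median was -0.17 beside -0.05 over all tested genes. Exact permutation tests of log2 CPM, two-sided and run gene by gene, gave p-values from 0.20 to 1 for the members; 3 libraries against 3 cannot go below 0.10. The 95% intervals of the log2 fold changes each included 0, but they were wide, so a moderate difference of either sign was not detectable here.

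**Figure D2:**
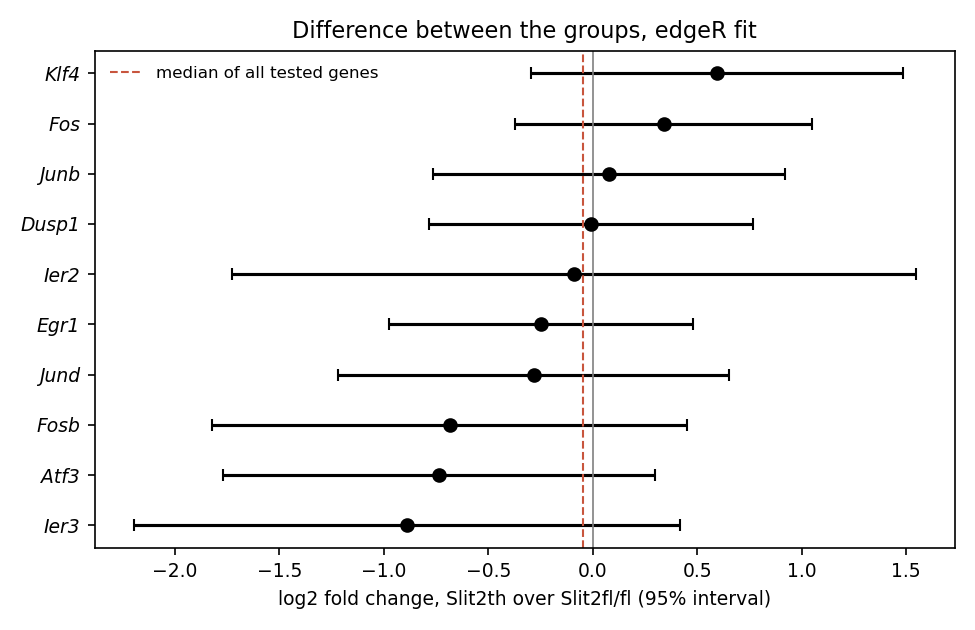
Log2 fold change of each gene, Slit2th over Slit2fl/fl, from edgeR's quasi-likelihood fit over 12152 genes and 6 libraries, with 95% intervals as bars and the median of all tested genes as a dashed line. Every interval crosses 0, and the widest is that of Ier2, from -1.73 to 1.55.

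Among the Fos and ATF subunits, Fos (ENSMUSG00000021250, chromosome 12, 85473890 to 85477273, GRCm38) had 517, 604 and 668 CPM in Slit2fl/fl replicates 1, 2 and 3 and 645, 872 and 746 CPM in Slit2th replicates 1, 2 and 3. The Slit2th libraries lay at the upper end, but replicate 1 of them fell under the third control library, and the groups overlapped narrowly. The means were 596 ± 76.1 and 754 ± 114 CPM (SD, n = 3 each), and the log2 fold change was 0.34 (95% interval -0.37 to 1.05, adjusted p = 0.667, edgeR quasi-likelihood test). With Slit2th replicate 1 left out, or with RLE size factors in place of TMM, the groups no longer overlapped. The adjusted p was 0.586 and 0.633 in these 2 settings by the edgeR test. The share of all tested genes that separate there was not computed, and fewer libraries separate more readily.

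Fosb, a close relative of Fos whose truncated splice form accumulates after repeated stimulation, had 18.9, 13.6 and 7.96 CPM in the Slit2fl/fl cultures and 6.18, 7.63 and 11.3 CPM in the Slit2th cultures. Its highest values were Slit2fl/fl replicates 1 and 2, and the lowest was Slit2th replicate 1, which rests on 7 counts. The log2 fold change was -0.68 (95% interval -1.82 to 0.45, adjusted p = 0.598 by the edgeR test). It was -0.35 without Slit2fl/fl replicate 1, -1.03 without Slit2fl/fl replicate 3 and -0.20 without replicate 1 of both groups. The number of Fos counts for each Fosb count, a ratio that does not depend on library scaling, was 27.3, 44.4 and 83.9 in the controls and 104, 114 and 66.1 in the Slit2th cultures.

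Atf3 (ENSMUSG00000026628, chromosome 1, 191170296 to 191218039) had 2609, 989.7 and 899 CPM in the Slit2fl/fl cultures and 1013, 911 and 776 CPM in the Slit2th cultures. A single library, Slit2fl/fl replicate 1, was more than double any other, and the remaining 5 lay close together. The means of 1499 ± 962 and 899.8 ± 119 CPM (SD, n = 3 each) gave a log2 fold change of -0.74 (95% interval -1.77 to 0.30, adjusted p = 0.546 by the edgeR test), which was -0.07 without Slit2fl/fl replicate 1. Relative to Fos in the same library, Atf3 had 5.05 counts per Fos count in that library and 1.04 to 1.64 in the other 5. Neuron markers and depth were highest and the mitochondrial share lowest in the same library (values above). Their part in the Atf3 level was not tested.

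Of the Jun subunits, Junb, which restrains Jun and limits cell division, had 28.8, 38.9 and 26.7 CPM in the Slit2fl/fl cultures and 25.6, 39.1 and 34.4 CPM in the Slit2th cultures. Both groups covered the same range. Its log2 fold change was 0.08 (95% interval -0.77 to 0.92, adjusted p = 0.942 by the edgeR test). Exons of Prdx2 overlap Junb on the opposite strand. It is not stated whether counting used strand, so the gene of origin of reads on the shared bases is not known. Prdx2 had 152, 47.3 and 67.7 CPM in the Slit2fl/fl cultures and 113, 21.5 and 26.0 CPM in the Slit2th cultures.

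Jund, the Jun protein that resting cells already hold and the least inducible of them, had 179, 275 and 270.1 CPM in the Slit2fl/fl cultures and 102, 259 and 233 CPM in the Slit2th cultures. In each group replicate 1 was the lowest, and replicates 2 and 3 were close to each other. The log2 fold change of -0.28 (95% interval -1.22 to 0.65, adjusted p = 0.794 by the edgeR test) was 0.03 without Slit2th replicate 1. Gm11175 overlaps the single exon of Jund on the opposite strand.

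Read as shares within each family, per kilobase of exon, Fos made up nearly all of the Fos family RNA. Its share was 85.6%, 87.7% and 89.0% in the controls and 88.8%, 91.6% and 90.0% in the Slit2th cultures (exact permutation test, two-sided, p = 0.20). Fosl2 held 8.07% to 12.8% of the family and Fosb 0.302% to 1.18%, whereas Fosl1 was at most 0.430%. In the Jun family replicate 1 of each group stood apart. Jun held 54.0%, 34.0% and 31.4% of the family in the controls (replicates 1 to 3) and 61.0%, 40.5% and 39.6% in the Slit2th cultures. Among replicates 2 and 3 both Slit2th values were above both control values, and Slit2fl/fl replicate 1 was above them all. Jund held 41.2% and 33.1% in replicate 1 of the groups, against 53.6% to 64.0% in the other 4 libraries. Junb stayed between 4.59% and 6.14% in all 6. The group means of the Jun share, 39.8 ± 12.4% in Slit2fl/fl and 47.0 ± 12.1% in Slit2th (SD, n = 3 each), differed by less than either SD (exact permutation test without pairing, two-sided, p = 0.50). Each SD includes the distance of replicate 1 from the other libraries.

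**Figure D3:**
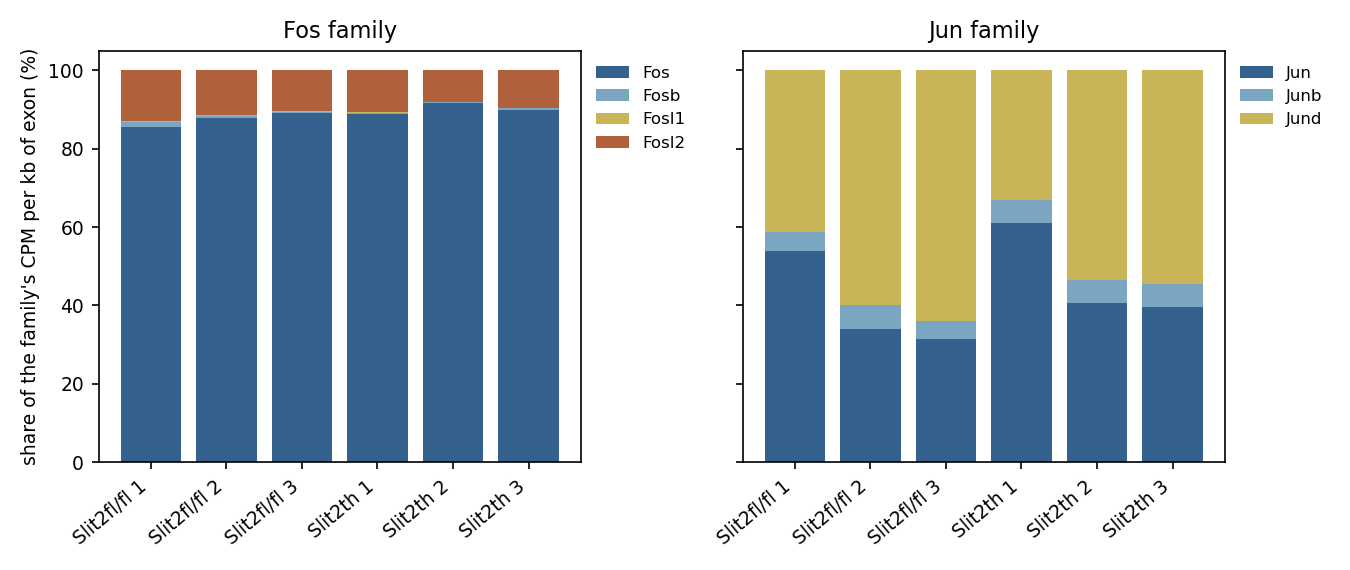
Share of each subunit in the CPM per kilobase of exon of the Fos family (left) and the Jun family (right), one bar for each library, adding to 100%. Fos fills most of every bar on the left, and on the right Jun is the larger part in replicate 1 of both groups and Jund in replicates 2 and 3.

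The other transcription factors showed no common direction. Egr1 (ENSMUSG00000038418), the zinc finger factor that answers growth factors, injury and neuronal activity, had 422, 356 and 295 CPM in the Slit2fl/fl cultures and 249, 306 and 349 CPM in the Slit2th cultures. Slit2fl/fl replicate 1 was the highest and Slit2th replicate 1 the lowest, with the other 4 libraries between them. Its log2 fold change was -0.25 (95% interval -0.98 to 0.48, adjusted p = 0.764 by the edgeR test). It was -0.11 without Slit2fl/fl replicate 1, -0.12 without Slit2th replicate 1, -0.44 without Slit2fl/fl replicate 3 and -0.0067 without replicate 1 of both groups.

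Klf4, a zinc finger factor known for limiting axon regrowth and for its role in pluripotency, had 19.2, 40.2 and 27.9 CPM in the Slit2fl/fl cultures and 44.1, 48.2 and 38.9 CPM in the Slit2th cultures. Slit2fl/fl replicate 2 was above Slit2th replicate 3, and this alone made the groups overlap. Klf4 had the largest positive log2 fold change of the 10, 0.60 (95% interval -0.30 to 1.49, adjusted p = 0.563 by the edgeR test). It was positive in all 18 alternative settings, between 0.35 and 0.91, with an adjusted p of 0.391 to 0.796.

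Of the 10 genes, Ier2 and Ier3 varied most between libraries, by 4.81-fold and 4.19-fold from the lowest to the highest. Ier2, a nuclear protein, had 51.2, 20.1 and 11.4 CPM in the Slit2fl/fl cultures and 54.7, 12.9 and 12.4 CPM in the Slit2th cultures. Replicate 1 of both groups was high and the other 4 libraries were low, so that the 2 group means, 27.6 ± 20.96 and 26.7 ± 24.3 CPM (SD, n = 3 each), were nearly equal. The log2 fold change was -0.09 (adjusted p = 0.966 by the edgeR test), 0.75 without Slit2fl/fl replicate 1 and -1.14 without Slit2th replicate 1. The metallothionein Mt1, the highest gene of the oxidative stress list, was at 1122 and 979 CPM in the 2 libraries of replicate 1 and at 155 to 494 CPM in the others. Nqo1 and Bax, the other genes named from that list, were highest in Slit2fl/fl replicate 1 (34.6 and 88.4 CPM). Both were lowest in Slit2th replicate 1 (6.18 and 8.83 CPM). A link between Ier2 and these genes was not tested.

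Ier3, which is known to restrain cell death, had 49.95, 12.3 and 14.8 CPM in the Slit2fl/fl cultures and 15.0, 11.9 and 15.2 CPM in the Slit2th cultures. As with Atf3, Slit2fl/fl replicate 1 stood alone and the other 5 libraries were close. The log2 fold change of -0.89 (95% interval -2.20 to 0.42, adjusted p = 0.558 by the edgeR test) was the most negative of the 10, and was 0.05 without that library.

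Dusp1, the phosphatase that switches off p38, JNK and ERK signaling, varied least, by 1.44-fold from the lowest library to the highest. It had 50.6, 70.0 and 54.0 CPM in the Slit2fl/fl cultures and 48.5, 69.2 and 55.3 CPM in the Slit2th cultures, so the 2 sets of values nearly coincided. Its log2 fold change was -0.01 (95% interval -0.78 to 0.77, adjusted p = 0.991 by the edgeR test). Exons of Ergic1 overlap Dusp1 on the opposite strand, and Ergic1 had 10.2 to 29.1 CPM.

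**Figure D4:**
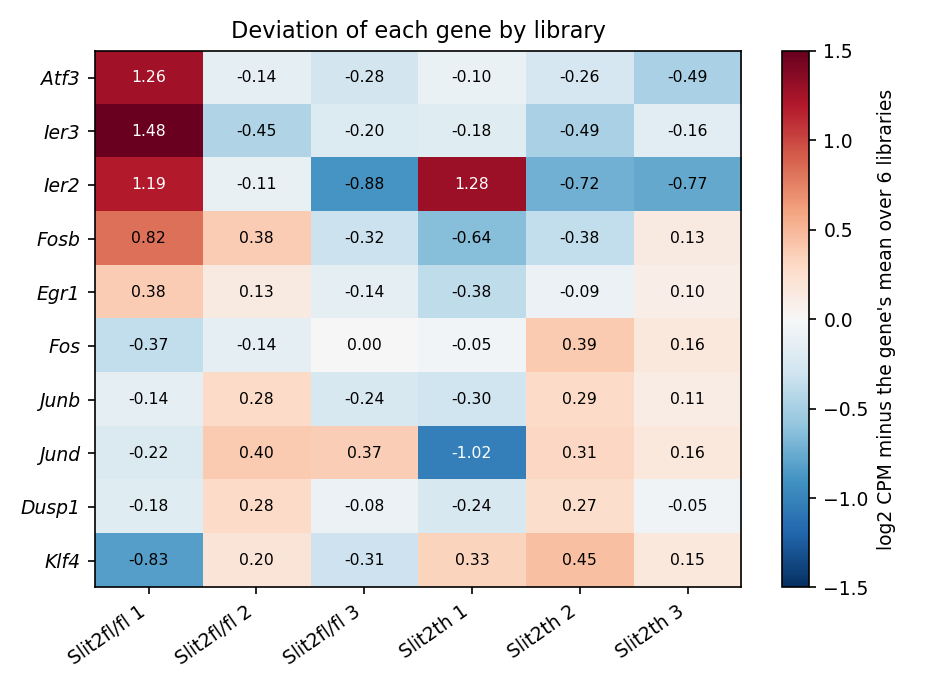
Log2 CPM of each gene in each library minus that gene's mean over the 6 libraries, red above and blue below the mean. The strong red cells belong to Slit2fl/fl replicate 1 (Atf3 1.26, Ier3 1.48 and Ier2 1.19) and to Ier2 in Slit2th replicate 1 (1.28), and the darkest blue cell to Jund in Slit2th replicate 1 (-1.02).

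The members did not move as 1 block over the libraries. Slit2fl/fl replicate 1 held the highest value of 4 of the 10 genes (Atf3, Ier3, Fosb and Egr1) and the lowest of 2 (Fos and Klf4). Slit2th replicate 1 held the lowest value of 5 genes and the highest of 1, Ier2. Between replicates the median coefficient of variation of the 10 genes was 29.3% in Slit2fl/fl and 17.4% in Slit2th, beside 43.8% and 35.1% over all tested genes, which include many genes of low count. Of the 12146 tested genes with a known GC content, those with more GC had lower log2 fold changes, and after a split into 5 bins of rising GC content the medians were 0.31 in bin 1 and -0.28 and -0.57 in bins 4 and 5, which hold 5 members each. With offsets corrected for GC content, an alternative added after the data were seen, the median of the members was 0.21, and still 0 of the 10 had an unadjusted p under 0.05. The part of GC content in the uncorrected values was not otherwise tested.

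The rest of the early response was read from lists of genes grouped by function, and here too no gene passed after adjustment. Of 8 other AP-1 and Maf subunits tested, 0 had an unadjusted p under 0.05, with a median log2 fold change of 0.28. Jun, the highest of them, had 450, 298 and 254 CPM in the Slit2fl/fl cultures and 361, 375 and 323 CPM in the Slit2th cultures, a log2 fold change of 0.08 (adjusted p = 0.933 by the edgeR test). Jdp2, which represses AP-1, and Mafk had the smallest p-values of this list, with log2 fold changes of 2.50 and -0.91 (adjusted p = 0.473 and 0.561 by the edgeR test). Jdp2 rests on 0 to 5 counts in Slit2fl/fl and 3 to 18 in Slit2th.

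Among 18 other immediate early transcription factors, the log2 fold change was positive for 14 and negative for 4, with a median of 0.47. Only Ier5 and Cebpb of them had an unadjusted p under 0.05, both higher in Slit2th, as were 3.99% of all tested genes. Ier5, a cofactor of the heat shock response, had 31.7, 62.2 and 64.8 CPM in the Slit2fl/fl cultures and 109, 143 and 119 CPM in the Slit2th cultures, a log2 fold change of 1.22 (standard error 0.38, adjusted p = 0.422 by the edgeR test). Cebpb, a factor of acute inflammation and myeloid cells, had 24.0, 107 and 50.6 CPM against 136, 203 and 168 CPM, a log2 fold change of 1.49 (standard error 0.52, adjusted p = 0.422 by the edgeR test). Klf6, the highest of this list, had 366, 577 and 523 CPM against 665, 702 and 675 CPM (log2 fold change 0.48, adjusted p = 0.567 by the edgeR test). The groups did not overlap for Ier5, Cebpb, Klf6, Egr3 and Myc (5 of the 18, all higher in Slit2th, where 8.74% of all tested genes were). In the other direction, the groups did not overlap for 5 of 20 heat shock chaperones and 4 of 21 upstream regulators, each lower in Slit2th, beside 9.72% of all tested genes. A further 2 of the 21 upstream regulators did not overlap with higher values in Slit2th.

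Of 19 feedback inhibitors tested, such as the RNA decay factors of the Zfp36 family, the Sprouty proteins and other Dusp phosphatases, the log2 fold change was positive for 14 and negative for 5 (median 0.36), and no gene reached an unadjusted p under 0.05 (0 of the 19). Zfp36l1, the highest of them, had 76.9, 242 and 166 CPM in the Slit2fl/fl cultures and 238, 334 and 367 CPM in the Slit2th cultures, and Dusp4 8.65, 4.54 and 9.10 CPM against 3.53, 3.82 and 1.13 CPM. Of 20 secreted and effector genes tested, 4 had an unadjusted p under 0.05, all with higher values in Slit2th (3.99% of all tested genes), namely Ccn2, Gadd45a, Thbs1 and Ptgs2; the median of the list was 0.09. Ccn2, a matricellular target of SRF and YAP, had 7.04, 16.2 and 8.53 CPM in the Slit2fl/fl cultures and 30.0, 37.2 and 40.6 CPM in the Slit2th cultures, a log2 fold change of 1.78 (standard error 0.45, adjusted p = 0.422 by the edgeR test). Gadd45a, a growth arrest and DNA damage gene, had 604, 1648 and 1268 CPM against 2879.7, 3512 and 3726 CPM, a log2 fold change of 1.52 (standard error 0.42, adjusted p = 0.422 by the edgeR test).

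**Figure D5:**
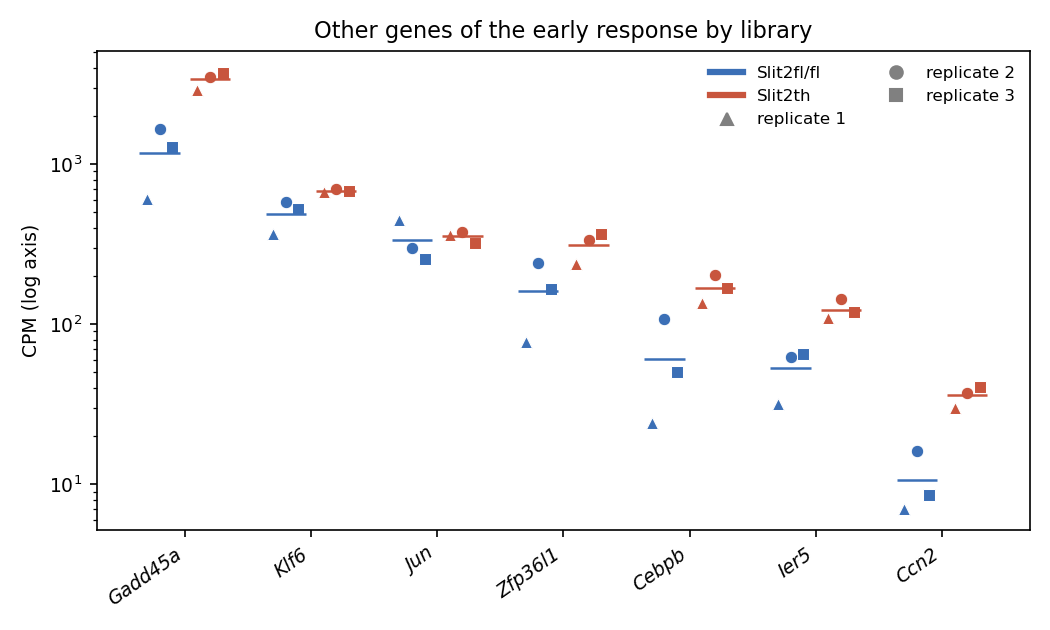
CPM by library, on a log axis, of Gadd45a, Klf6, Jun, Zfp36l1, Cebpb, Ier5 and Ccn2, with Slit2fl/fl in blue, Slit2th in red, symbols for the replicate number and bars for the group means (n = 3 each). All Slit2th symbols lie above all Slit2fl/fl symbols for Gadd45a, Klf6, Cebpb, Ier5 and Ccn2, while the groups overlap for Jun and Zfp36l1.

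Among 21 upstream regulators of the ERK, JNK, p38 and SRF routes, the log2 fold change was positive for 10 and negative for 11 (median 0.00), and Map2k7, Map2k2 and Elk4 had an unadjusted p under 0.05, all with lower values in Slit2th, as did 6.78% of all tested genes. Map2k7, a kinase that activates JNK, had 194, 53.1 and 68.8 CPM in the Slit2fl/fl cultures and 45.0, 27.7 and 23.1 CPM in the Slit2th cultures (log2 fold change -1.73, adjusted p = 0.422 by the edgeR test). Map2k2, a kinase that activates ERK, had a log2 fold change of -1.03 (adjusted p = 0.447 by the edgeR test).

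In the other arms of the stress response the median log2 fold changes were close to that of all genes or slightly above it. Of 20 heat shock chaperones tested, 10 were positive and 10 negative (median -0.02), and Hspe1 alone had an unadjusted p under 0.05, at 427, 454 and 795 CPM in the Slit2fl/fl cultures and 321, 255 and 248 CPM in the Slit2th cultures (adjusted p = 0.422 by the edgeR test). Dnajb1 had a log2 fold change of -0.87 (adjusted p = 0.465 by the edgeR test). Cryab, a small heat shock protein and the highest of the list, had 19529 CPM in Slit2fl/fl replicate 1, against 2228 to 3556 CPM in the other 5 libraries, the same library in which Atf3 and Ier3 stood apart. Of 16 genes of the integrated stress and unfolded protein responses, 9 were positive and 7 negative (median 0.04) and 0 had an unadjusted p under 0.05. Hspa5, the highest of them, had a log2 fold change of 0.03, Herpud1 of 0.76 and Sdf2l1 of -1.41. Of 17 oxidative and p53 stress genes, 10 were positive and 7 negative (median 0.15), and Bax alone had an unadjusted p under 0.05, at 88.4, 12.3 and 26.2 CPM in the Slit2fl/fl cultures and 8.83, 10.5 and 9.59 CPM in the Slit2th cultures. Nqo1 had a log2 fold change of -0.87 and Mt1 of -0.51 (adjusted p = 0.530 and 0.804 by the edgeR test).

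Markers of particular cell types varied between the cultures too. The 15 macrophage and myeloid markers summed to 133, 74.5 and 38.1 CPM in the Slit2fl/fl cultures and to 718, 140.3 and 168 CPM in the Slit2th cultures, and an unadjusted p under 0.05 was found for 7 of the 12 tested, each higher in Slit2th, beside 3.99% of all tested genes. Lyz2, the lysozyme of macrophages and the highest of them, had 37.1, 42.8 and 17.1 CPM against 285, 69.2 and 79.0 CPM. The 16 proliferation markers summed to 544, 535 and 576 CPM against 222, 342 and 383 CPM, and an unadjusted p under 0.05 was found for 6 of the 16, each lower in Slit2th, beside 6.78% of all tested genes. Top2a, a topoisomerase of dividing cells and the highest of them, had 109, 140.0 and 151 CPM against 55.6, 91.6 and 106 CPM. Glia marker sums were 5945, 11077 and 12032 CPM in the Slit2fl/fl cultures and 20566, 13716 and 15822 CPM in the Slit2th cultures. The 5 lymphocyte and erythroid markers in the table summed to at most 1.30 CPM, the 16 sensory neuron markers to 81.0 to 181 CPM, and the 12 endothelial and mural markers to 29.1 to 126 CPM. Of the sensory neuron sums, Runx1 alone made up 44.8 to 115 CPM, and 8 of the 16 markers had no counts in any library. An unadjusted p under 0.05 was found for 2 of 18 tested glia markers (both lower), 4 of 14 fibroblast markers (3 higher, 1 lower), 1 of 8 endothelial and mural markers (lower), 0 of 7 neuron markers and 0 of 3 sensory neuron markers, where 10.8% of all tested genes had one in either direction. The part of cell content in the levels of the immediate early genes was not tested.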

How the data were processed

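Total RNA from 6 cultures was sequenced by the authors with the Illumina TruSeq kit, and the reads were aligned with HISAT2. The study's methods name mm10 as the genome, while the submitters' processing notes name GRCm39. The authors deposited a table of raw counts for 20173 genes, in whole numbers and without normalization; the counting program, strand setting and annotation release are not given in the sources used here. Positions, exon lengths, GC content and overlaps come from GENCODE M21 (GRCm38), in which 20159 identifiers were found.

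Genes with at least 1 CPM in at least 3 libraries were kept. They were normalized by TMM and compared by the quasi-likelihood test of edgeR, with group as the single term and Benjamini-Hochberg adjustment over all 12152 tested genes and a threshold of 0.05 (R 4.3.3, edgeR 4.0.16). CPM are on TMM-scaled totals, and log2 CPM used a prior count of 2. DESeq2 1.42.0 and limma 3.58.1 were alternatives, as were other normalizations, filters and left-out libraries. The common coefficient of variation between replicates was 50.4%.

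The members and lists were chosen with earlier results of these data known. Named genes were all members, and in each other list the 2 with the smallest p and the 1 with the highest CPM, and the 1 with the highest CPM in each marker list (most are given here by the sums of their lists), with Slit2 and the 5 genes of nearest profile; some genes that this rule names are not reported here, and genes that made up a count of 5 or fewer were named after their values were seen. Motif letters were chosen after the sequences were seen.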

Additional observations from a re-analysis of the deposited data

How the results depend on the processing

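Over 18 alternative settings, 0 of the 10 members had an adjusted or an unadjusted p under 0.05 in any, and the smallest unadjusted p of a member was 0.0706 (Ier3 without Slit2fl/fl replicate 2, edgeR). The number of members whose groups did not overlap was 0 as reported, 1 (Fos) with RLE factors, without the filter and with the filter in all libraries, and 0 to 3 with libraries left out. Over all tested genes the share was 18.5% as reported. It was not computed under the other settings, and with fewer libraries groups separate more readily, so these counts show no trait of the members. The median log2 fold change of the members was -0.36 to -0.01 with libraries left out, 0.21 with GC-corrected and 0.039 with length-corrected offsets; the last 2 were added after the data were seen. Over all genes, the 0 calls became 7 without the filter, 34 with DESeq2, 16 with edgeR's exact test and 0 to 377 with libraries left out, 377 without replicate 1 of both groups and 1 without Slit2fl/fl replicate 1; the cause was not tested. Of 180 member values, 159 kept their sign and 21 turned it. With libraries left out, log2 fold changes ran from -1.03 to -0.20 for Fosb, -0.44 to -0.0067 for Egr1, -0.094 to 0.26 for Junb, -0.51 to 0.033 for Jund, -1.14 to 0.75 for Ier2, -1.24 to 0.0496 for Ier3 and -0.15 to 0.15 for Dusp1. With GC-corrected offsets they were 0.017 for Jund, 0.18 for Egr1, 0.54 for Ier2 and 0.25 for Dusp1, and with length-corrected offsets 0.27 for Ier2 and 0.11 for Dusp1. Dusp1 was 0.0139 with RLE factors, 0.00855 with library totals, 0.00196 without the filter, 0.0169 with DESeq2 and 0.00746 with limma-voom. Under a replicate block, the members' median was -0.19 and 0 of the 10 passed either rule. Deviations of same-numbered libraries correlated at 0.29, 0.24 and 0.08 across genes. Those of Slit2fl/fl replicate 2 and Slit2th replicate 3, with unlike numbers, correlated at 0.25. These values do not settle whether the numbers pair the libraries, and no pairing is stated.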

Other observations

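The mean profile of the 10 immediate early genes over the libraries (log2 CPM, each gene centred on its own mean) was 0.34, 0.08 and -0.21 in the controls and -0.13, -0.02 and -0.06 in the Slit2th cultures, replicates 1, 2 and 3. Among the members, Egr1 lay closest to it (root mean square distance 0.13) and Ier2 farthest (0.84). Of the tested genes outside the set, the 5 nearest to this profile over the 6 libraries were Acat1, Pllp, Aldoa, 1110051M20Rik and Ctr9. The profile is an average of members that moved differently, and these 5 genes varied little. From the lowest library to the highest they changed by 1.37-fold (Aldoa) to 1.63-fold (1110051M20Rik). Shared control with the members was not tested. Aldoa, a glycolytic enzyme, had 597, 577 and 434 CPM in the controls and 497, 528 and 487 CPM in the Slit2th cultures.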
